A study of Mus musculus with 6 samples.

Results

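The Dlk1-Dio3 cluster is an imprinted gene domain on mouse chromosome 12, and its transcripts were followed here in control lung and in urethane-induced lung tumours. The members were the rows of the count table that lay wholly within chromosome 12, 110691033 to 110987665 (mm9), an interval of 296.6 kb that runs from Dlk1 to the end of Mirg. This took 66 of the 33924 rows: 2 protein-coding genes (Dlk1 and Rtl1), 3 long noncoding RNAs (Meg3, Rian and Mirg), 48 microRNA rows, 4 small nucleolar RNA (snoRNA) rows and 9 rows with other names, of which 8 carry clone names and 1 is Gm17639. The interval was chosen because its transcripts differ between these same libraries. The difference between control and tumour is therefore described with a standard error and no p-value, and is not used as evidence. Dio3, the deiodinase gene at the far end of the domain, lies outside the interval and is given with the neighbouring genes.

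The libraries are bulk RNA sequencing of total RNA from FVB/NJ mice, an inbred strain, and the labels state no altered gene. Control lung came from the saline arm and tumour tissue from mice given urethane, a chemical carcinogen, at 1 g per kg by intraperitoneal injection. All tissue was harvested at 6 months. There were 3 control libraries (replicates 1, 2 and 3) and 3 tumour libraries (replicates 1, 2 and 4), with 38996532 to 62336537 counted reads each, so that 3 reads equal 0.0456 to 0.0815 CPM (counts scaled to library size by TMM). The labels name no separate animal for each library, so the spread and the p-values below are those between libraries, which may be partly technical. Nor do they say how tumour tissue was parted from the lung around it. By its sex-linked genes, tumour replicate 2 is female and the other libraries are male.

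In an imprinted domain, each gene is read from the chromosome of only one parent. Here Dlk1, Rtl1 and Dio3 are read from the paternal chromosome, and Meg3, Rian, Mirg and the small RNAs from the maternal one, under the control of a methylated region between Dlk1 and Meg3. The maternal transcripts are thought to form one long transcription unit, from whose introns and exons the microRNAs and box C/D snoRNAs are cut. The domain is known for its activity in the embryo, the placenta and the brain and for low levels in most adult tissues. The counts carry no information on the parent of origin.

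The table counts reads of standard RNA libraries over the annotated hairpin of each microRNA, not the mature microRNA, so a microRNA row stands for host or precursor RNA. All 48 microRNA rows matched a RefSeq microRNA (1 through an older name), and these matches gave 89 mature sequences. Those of the 8 most abundant microRNA rows that share no exon base with another row are given here to show what these transcripts encode, 5′ to 3′ (RefSeq, GRCm38.p6), with the seed, bases 2 to 8, in capitals.
mmu-miR-679-5p: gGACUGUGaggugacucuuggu
mmu-miR-679-3p: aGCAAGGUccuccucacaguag
mmu-miR-493-5p: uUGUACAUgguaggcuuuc
mmu-miR-493-3p: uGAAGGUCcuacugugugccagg
mmu-miR-453: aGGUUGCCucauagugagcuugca
mmu-miR-382-5p: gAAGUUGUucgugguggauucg
mmu-miR-382-3p: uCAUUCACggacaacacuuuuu
mmu-miR-341-5p: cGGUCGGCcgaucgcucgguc
mmu-miR-341-3p: uCGGUCGAucggucggucggu
mmu-miR-1193-5p: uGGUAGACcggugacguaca
mmu-miR-1193-3p: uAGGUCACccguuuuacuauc
mmu-miR-540-5p: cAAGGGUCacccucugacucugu
mmu-miR-540-3p: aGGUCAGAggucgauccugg
mmu-miR-134-5p: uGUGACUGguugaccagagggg
mmu-miR-134-3p: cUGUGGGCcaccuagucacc

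The 89 mature sequences held 83 distinct seeds, and 6 seeds were shared by a pair of members each, 10 members in all. Both arms of Mir1193 share a seed with another member (Mir379 and Mir370), and Mir453 shares one with Mir496. The pairs are printed so that the shared letters can be seen, grouped by seed.
mmu-miR-1193-5p: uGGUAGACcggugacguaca
mmu-miR-379-5p: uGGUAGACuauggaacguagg
mmu-miR-1193-3p: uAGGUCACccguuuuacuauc
mmu-miR-370-5p: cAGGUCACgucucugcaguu
mmu-miR-453: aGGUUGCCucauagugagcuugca
mmu-miR-496a-5p: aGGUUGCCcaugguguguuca
mmu-miR-379-3p: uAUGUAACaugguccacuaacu
mmu-miR-411-3p: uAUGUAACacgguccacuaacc
mmu-miR-1197-5p: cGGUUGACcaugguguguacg
mmu-miR-758-5p: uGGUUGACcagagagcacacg
mmu-miR-410-5p: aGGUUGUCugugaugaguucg
mmu-miR-494-5p: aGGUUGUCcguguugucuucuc

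The cluster as a whole was close to silent in control lung and high in all 3 tumours. Summed over the 66 members, the level was 16.6, 17.7 and 18.1 CPM in control replicates 1, 2 and 3 and 4733, 3985 and 4157 CPM in tumour replicates 1, 2 and 4. The groups did not overlap, and the means were 17.5 ± 0.738 and 4291 ± 392 CPM (SD, n = 3 each), a 245-fold difference or 7.94 on the log2 scale. A read that touches several rows was counted for each, so these sums count some reads more than once. Over the 49 members that share no exon base with another row the difference was 9.63, most of it Dlk1. For the 3 noncoding hosts together, the level was 14.0 ± 0.575 CPM in control lung and 3057 ± 149 in tumours, a log2 difference of 7.77. In bulk tissue, fewer cells that make an RNA cannot be told apart from less of it per cell.

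Of the 66 members, 65 had enough reads to be tested (all but Mir495), and 65 were called higher in tumours (edgeR quasi-likelihood F test over 20001 rows, with the p adjusted by Benjamini-Hochberg and a threshold of 0.05). The rule used this contrast, and 18.1% of all rows tested were called higher. In the same 65 members every tumour library lay above every control library, which held for 26.1% of all rows tested; the reverse held for 29.9% of all rows and for no member. Their median log2 fold change was 7.68, with a range of 5.58 to 11.35, beside a median of 0.01 over all rows tested. In the tumours these rows took 9 of the 20 largest log2 fold changes of the table, 26 of the 50 largest and 54 of the 100 largest. Of the 66 members, 22 had no control read, so their fitted fold changes and ranks are not measured ratios. The ranks come from the contrast that chose the rows and are a description only.

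Dlk1 (110691033 to 110701546, plus strand) encodes a transmembrane protein of the Delta and Notch family that is known to hold progenitor cells undifferentiated. It had 0, 44 and 0 reads in control replicates 1, 2 and 3 and 70666, 28485 and 18597 reads in tumour replicates 1, 2 and 4. On the CPM scale this was 0.669 in control replicate 2 and 1155, 512 and 404 in the tumours. The tumour libraries were far above control lung and also spread more than for any other long transcript, by 2.86-fold from lowest to highest. Its fitted log2 fold change was 11.35 ± 1.18 (SE). The ratio of pooled reads was 2494 (95% interval 1858 to 3433, for counting error only). All control reads came from control replicate 2; without that library, the level was at least 20729-fold higher in tumours, taking 3 reads over the control group as the floor. Without tumour replicate 1 the ratio was 1597. The floor of 3 reads was 0.0815 CPM in control replicate 1 and 0.0609 CPM in control replicate 3. Control replicate 2 also had the highest summed level of 8 skeletal and heart muscle markers, 543 CPM against 84.8 and 177 CPM in control replicates 1 and 3. Whether muscle tissue supplied its Dlk1 reads was not tested.

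Rtl1, on the minus strand at 110827404 to 110838540, is a retrotransposon-derived gene that is required in the placenta. Its level was 1.22, 0.669 and 0.853 CPM in control replicates 1, 2 and 3 and 132, 138 and 121 CPM in tumour replicates 1, 2 and 4. The tumour libraries lay close together, with a log2 fold change of 7.18 ± 0.26 (SE). The hairpins of 6 microRNAs lie antisense within its exons (Mir431, Mir433, Mir127, Mir434, Mir432 and Mir136). They cover 8.9% of its exon bases. No strand option was given in counting, so reads of Rtl1 and of the maternal transcript across it cannot be told apart. Paternal coding and maternal noncoding transcripts were thus both higher in the tumours on these values, with that limit for Rtl1.

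Meg3, the first long noncoding RNA of the maternal side (110779211 to 110809936, plus strand), had 190, 384 and 435 reads in control replicates 1, 2 and 3 and 82412, 78970 and 79951 reads in tumour replicates 1, 2 and 4. This equalled 5.16, 5.84 and 8.83 CPM in control lung and 1347, 1418 and 1735 in tumours. The groups did not overlap, with a log2 fold change of 7.82 ± 0.32 (SE). Rian, the host of many box C/D snoRNAs (110842155 to 110899919), was at 7.61, 7.71 and 5.42 CPM in control lung and 1633, 1361 and 1362 in tumours, a log2 fold change of 7.71 ± 0.27. Mirg, the host of the last microRNAs of the interval (110973191 to 110987665), was at 0.706, 0.426 and 0.366 CPM in control lung and 105, 117 and 92.0 in tumours, a log2 fold change of 7.74 ± 0.28. The 3 hosts thus had nearly the same fold change, with differences smaller than their standard errors. Gm17639 is annotated on the opposite strand and lies wholly within exons of Meg3. It was at 0.706, 1.16 and 0.812 CPM in control lung and 168, 199 and 208 in tumours, but its reads cannot be told apart from those of Meg3.

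By mean CPM in the tumours, Meg3 ranked 25 and Rian 27 among all rows of the table, and Dlk1 ranked 89. In control lung their ranks were 11360, 11219 and 19628. Per kilobase of exon, tumour levels were 177 CPM for Rian, 122 for Dlk1, 82.9 for Meg3, 32.9 for Mirg and 20.5 for Rtl1. The order of the first 3 was not the same in each tumour: Dlk1 led in replicate 1 (204 CPM per kb, against 199 for Rian), whereas in replicate 4 it was last of the 3 (71.3, against 95.9 for Meg3 and 166 for Rian). Rian and Dlk1, and Dlk1 and Meg3, therefore did not differ beyond their spread. Mirg stood above Rtl1 in each tumour library, with 29.0 CPM per kb at its lowest against 21.7 at the highest for Rtl1.

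**Figure D1:**
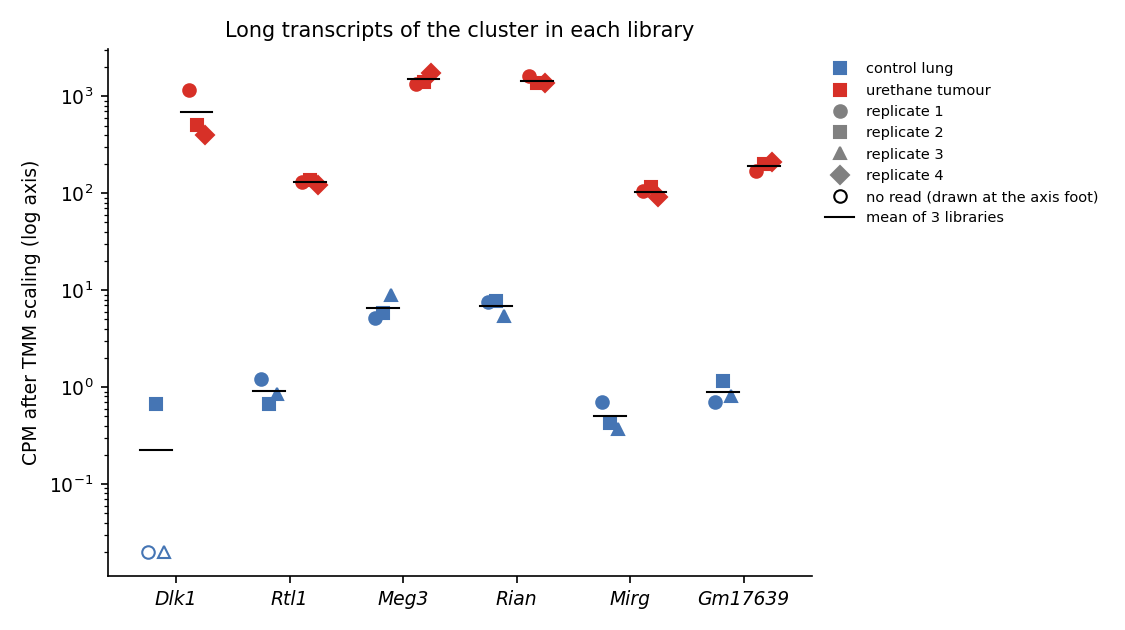
Level of the 5 long transcripts and of Gm17639 in each library, in CPM on a log axis, with replicates as symbols, control lung in blue, tumours in red and a bar for the mean of 3 libraries. Open symbols at the foot of the axis mark 0 reads of Dlk1 in control replicates 1 and 3. Tumours lay above control lung for every transcript, and Dlk1 had the widest spread among tumours, from 404 to 1155 CPM.

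The ratio of Dlk1 to Meg3 reads differed from tumour to tumour. For every 100 reads of Meg3, Dlk1 had 85.7, 36.1 and 23.3 reads in tumour replicates 1, 2 and 4, and 0, 11.5 and 0 in control replicates 1, 2 and 3. Rian had 121, 95.9 and 78.5 reads per 100 reads of Meg3 in the tumours and 147, 132 and 61.4 in control lung. The ratio of Rian to Meg3 therefore covered much the same range in both groups, while the ratio of Dlk1 to Meg3 was higher in each tumour than in any control library. Rtl1, the other paternal gene, had at most 9.80 reads per 100 reads of Meg3 in any tumour and 23.7, 11.5 and 9.66 in control lung, so its ratio did not stand above control lung. These ratios come from the contrast that chose the members and are given as a description.

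The promoters of Dlk1 and Meg3, which open the paternal and the maternal side, are given as RefSeq has them in GRCm38.p6 (plus strand, 250 bases before to 50 after the start). The Dlk1 window is chr12:109452573-109452872 and the first Meg3 window is chr12:109540746-109541045. They are shown because these transcripts were high together, and capitals mark matches to the motifs searched on both strands.
Dlk1: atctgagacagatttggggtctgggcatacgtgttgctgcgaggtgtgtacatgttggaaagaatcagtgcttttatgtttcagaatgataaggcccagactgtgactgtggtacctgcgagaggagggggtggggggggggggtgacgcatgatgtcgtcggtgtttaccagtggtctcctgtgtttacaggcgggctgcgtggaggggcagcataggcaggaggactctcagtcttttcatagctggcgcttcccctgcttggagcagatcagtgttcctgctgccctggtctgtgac
Meg3: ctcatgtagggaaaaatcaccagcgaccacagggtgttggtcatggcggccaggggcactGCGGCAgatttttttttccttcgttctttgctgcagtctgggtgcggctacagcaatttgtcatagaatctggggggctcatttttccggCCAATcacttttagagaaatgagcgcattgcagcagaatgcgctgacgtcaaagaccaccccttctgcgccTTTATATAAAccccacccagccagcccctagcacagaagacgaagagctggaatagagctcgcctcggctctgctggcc

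The motifs searched were the hexamer that ZFP57 binds when it is methylated (TGCCGC), the GC box (GGGCGG), the TATA box (TATAAA), the CCAAT box, an E-box (CACGTG) and the YY1 element (AAGATGGC). The first Meg3 window held the ZFP57 hexamer 1 time, as its reverse complement, and the CCAAT box 1 time. It also held the TATA box on both strands, where its 2 matches overlap. The Dlk1 window held none of these letters. Of 32851 promoters of the same length, 11.6% held the ZFP57 hexamer, 37.4% the CCAAT box and 13.6% the TATA box, and the shares for the GC box, the E-box and the YY1 element were 35.7%, 7.15% and 2.75%. The Dlk1 window had 9 CpG sites and the first Meg3 window 13, beside a median of 7.0 over all promoters. The window of a second Meg3 start, not printed here, had 1 CpG site and none of the motifs. In the windows of Rian and Mirg, which are processed parts of one long transcription unit in the usual view, there were 0 and 10 CpG sites. The matches are a description, and no methylation was measured.

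The 60 short rows (microRNAs, snoRNAs and clone names) were almost without reads in control lung. Of them, 22 had no control read at all and 20 had 1 to 3 reads over the 3 control libraries. Their summed level was 1.22, 1.22 and 1.77 CPM in control replicates 1, 2 and 3 and 192, 241 and 235 CPM in tumour replicates 1, 2 and 4. For the 22 rows with no control read, tumours were higher by at least 4.04-fold (Mir495, with 1, 12 and 0 reads in tumour replicates 1, 2 and 4) to at least 299.8-fold (Mir770), with a median bound of 80.2-fold. With those rows set at their bound, the median log2 fold change over all members tested was 6.87. Each library's count is small here, so the bounds mainly reflect how many tumour reads a row had.

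Among microRNA and snoRNA rows that share no exon base with another, the snoRNA AF357355 (110892837 to 110892908) had the highest mean level per kilobase. Box C/D snoRNAs of this kind guide methylation of other RNAs, but the targets of those in this cluster are mostly unknown. AF357355 had 2, 2 and 0 reads in control lung and 304, 273 and 251 reads in tumours, a log2 fold change of 7.46 ± 0.57 (SE). At 70.9 CPM per kb in tumours it varied little, by 1.11-fold from lowest to highest. Among the other snoRNA rows, SNORD112 had a log2 fold change of 6.66 ± 0.61. AF357428 and AF357341 had no control read, and tumours were higher by at least 64.9-fold and 66.8-fold. SNORD113, a name shared by 22 annotated copies on 4 chromosomes, 19 of them in the interval, is no member, and its level went from 1.03, 0.578 and 0.650 CPM in control lung to 160.0, 157 and 162 CPM in tumours.

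Mir679 (110953787 to 110953860), which lies ahead of Mirg with Mir1193 beside it, had 0, 0 and 1 reads in control lung and 332, 278 and 236 reads in tumours. Its log2 fold change was 9.17 ± 0.60, and the ratio of pooled reads was 788 (95% interval 141 to 31179). The width of that interval comes from the single control read. Mir1193 had 0, 2 and 0 reads in control lung and 317, 326 and 259 in tumours (8.51 ± 0.61). Mir453 had 0, 0 and 1 reads in control lung and 285, 241 and 204 in tumours (8.96 ± 0.61). These 3 rows showed nearly the same level in each tumour, within 1.08-fold to 1.13-fold. Their SEs do not reflect how few control reads there were. Over the alternative fits the log2 fold change ranged from 8.47 to 11.12 for Mir679 and from 8.06 to 11.11 for Mir1193. For Mir453 the range was 8.26 to 10.91.

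Mir134, known for its part in the size of dendritic spines in neurons, had 1, 0 and 1 reads in control lung and 187, 231 and 109 in tumours (log2 fold change 7.66 ± 0.65). Mir382, close to it, had 3, 2 and 4 reads in control lung and 211, 337 and 149 in tumours (6.07 ± 0.52). In both, tumour replicate 2 was highest and replicate 4 lowest. Mir485 had no control read and 145, 227 and 131 reads in tumours, which is at least 156-fold higher.

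Between Meg3 and Rtl1, Mir493 had 4, 2 and 4 reads in control lung and 263, 305 and 258 in tumours (6.18 ± 0.46). Mir540 had 0, 0 and 9 reads in control lung and 220, 227 and 169 in tumours (5.91 ± 0.94). All its control reads came from replicate 3, and without that library the bound was at least 129-fold against a pooled ratio of 63.8 with it. Mir665 stood at 0, 2 and 3 control reads and 205, 207 and 227 tumour reads (6.84 ± 0.59). Beyond Rtl1, Mir341 had 1, 4 and 0 reads in control lung and 250, 215 and 269 in tumours (7.06 ± 0.63), and Mir1188 had 0, 4 and 5 and 360, 251 and 236 (6.42 ± 0.59). No row of these 5 overlapped between the groups. Every tumour library was above every control library in 26.1% of all rows tested, and the interval was chosen on this contrast.

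With so few control reads, single control libraries moved the ratio of pooled reads by more than 1.5 times in several of these rows. Without control replicate 1, it went from 193 to 292 for AF357355 and from 246 to 372 for Mir134. Without control replicate 2, it went from 788 to 447 for Mir679, from 680.3 to 386 for Mir453, from 246 to 139 for Mir134, from 137 to 388 for Mir341 and from 63.8 to 36.1 for Mir540. The ratio for Mir1193, 420.3 with all libraries, became a bound of at least 159, and the bound for Mir485 became 88.6. Without control replicate 3, it went from 119 to 201 for Mir665 and from 87.7 to 133 for Mir1188, and Mir679 and Mir453 were left with no control read and bounds of at least 178 and 153. Mir540 was then also without a control read, at a bound of at least 129. Tumours stayed higher in each case.

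Mir1906-1 and Mir770 lie within exons of Meg3 and were picked out after their values were seen. Mir1906-1 had 654 CPM per kb in tumours, several times the next short row, and Mir770 had 65.0. Both rows hold reads of the Meg3 transcript itself. At the other end of the scale, Mir376b had 5.70 CPM per kb and Mir136 8.83. A row of about the length of a read takes in any read that touches it, so the level per kilobase of a short row is not on the footing of a long transcript, and short rows are compared here only with each other.

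The tumours did not keep the same order along the interval. Of the 36 short rows from Mir379 to the end of Mirg, replicate 2 was highest in 27, replicate 1 in 6 and replicate 4 in 3. Of the 9 short rows from Meg3 to before Rtl1, replicate 4 was highest in 6. Per 100 reads of Meg3, the 36 rows had 5.16, 7.59 and 4.78 reads in tumour replicates 1, 2 and 4, whereas the 9 rows had 6.08, 5.84 and 5.99. Most reads of those 9 rows fell in Mir1906-1, inside Meg3. Mir300 was the clearest case in the Mir379 segment among rows picked out after their values were seen, with 4.76, 24.3 and 14.3 CPM per kb in tumour replicates 1, 2 and 4. Replicate 2 is also the library that stands apart in sex-linked genes, with 3359.8 CPM of Xist against at most 32.9 in the other 5 libraries. The Y-linked Kdm5d, Eif2s3y, Uty and Ddx3y were at most 0.216 CPM in it and at least 37.6 CPM in the other 5. By these genes replicate 2 is female and the other 5 libraries are male, so it shares no animal with tumour replicates 1 and 4. Whether this bears on the order was not tested.

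**Figure D2:**
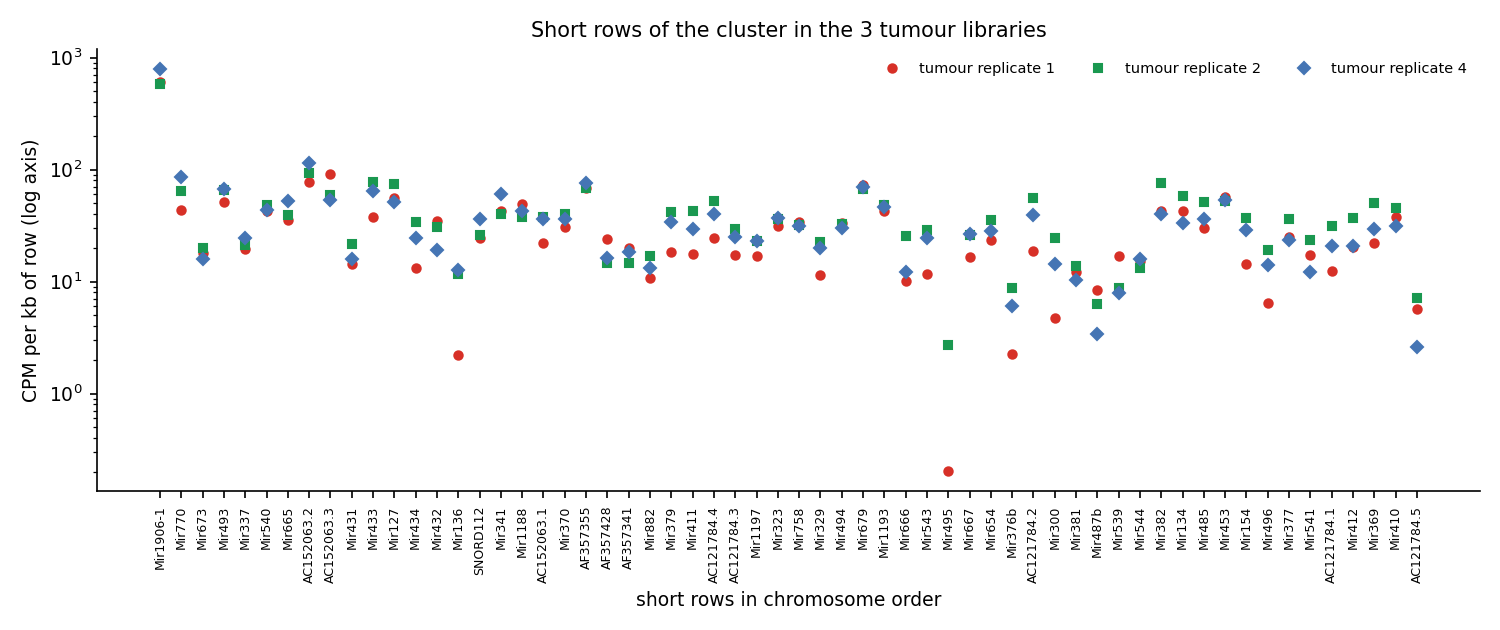
Level of the 60 short rows in chromosome order in the 3 tumour libraries, in CPM per kb of row on a log axis; values of 0 (Mir495 in replicate 4) are not drawn. Mir1906-1 stands above all others at 575 to 785 CPM per kb, and green squares (replicate 2) are often highest toward the right.

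The microRNA rows also differed in level with the base composition of their hairpins. RefSeq held the hairpin for 45 rows, and 44 had at least 30 tumour reads. Across these rows, the log2 level per kilobase in tumours had a Pearson r of 0.47 and a Spearman rho of 0.45 with GC content. The rows share libraries and neighbouring sequence and are not independent, so this is a description. Some of them, such as Mir770 and Mir433, lie within exons of another row, and Mir1906-1 is not among them. Whether base composition itself bears on the level was not tested. The 14 rows of lowest GC content (33.8% to 43.3%) had a median of 22.3 CPM per kb, and the 14 of highest (53.2% to 70.2%) a median of 42.8. The excess of replicate 2 over replicate 1 was found at both ends, with a median log2 difference of 0.89 in the first set and 0.39 in the second.

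**Figure D3:**
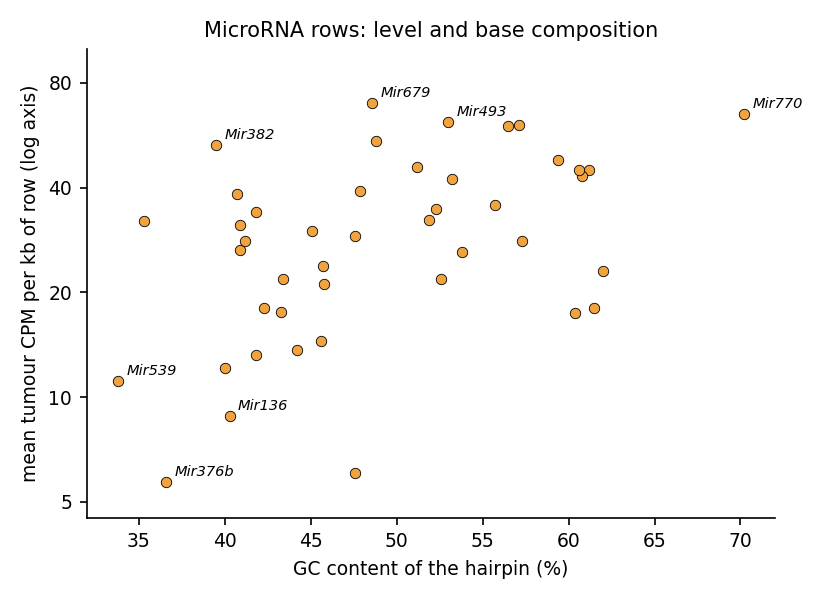
Mean tumour level of 44 microRNA rows (CPM per kb, log axis) against the GC content of the hairpin (%), each point 1 row. Rows of low GC content include the least abundant, Mir376b at 5.70 CPM per kb, and Mir770 has the highest GC content.

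The genes tested on either side of the interval had log2 fold changes between -1.37 and 1.67. Of 22 rows that lie within 1 Mb of either end, 15 were tested and 4 were called changed, beside 42.0% of all rows tested. The nearest tested gene upstream, Wdr25, at 424.4 kb, was at 3.67, 3.18 and 3.55 CPM in control lung and 5.92, 3.04 and 2.78 CPM in tumours, with a log2 fold change of 0.18 ± 0.34 (edgeR adjusted p = 0.708). The groups overlapped, and tumour replicate 1 was above the rest. Without it the value was -0.22. Begain, closer at 399.4 kb, had 5, 42 and 47 reads in control lung and 4, 0 and 7 reads in tumours. It was not among the rows tested, and its groups overlapped.

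Downstream, Dio3 (529.6 kb from the end of the interval) encodes the deiodinase that inactivates thyroid hormone and is the paternally read gene that closes the domain. It had 2, 10 and 2 reads in control replicates 1, 2 and 3 and 0, 3 and 1 reads in tumour replicates 1, 2 and 4, too few to test, so no higher level was detectable at this depth. Dio3os, a noncoding RNA that starts beside Dio3, was the nearest tested row on this side. It was at 0.489, 0.350 and 0.467 CPM in control lung and 0.556, 0.629 and 1.13 CPM in the tumours, a log2 fold change of 0.82 ± 0.42 (edgeR adjusted p = 0.150). Every tumour library was above control lung, but the difference did not pass the test.

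The 4 flanking rows that passed the edgeR test lay 615.8 kb or more from the interval, and their changes were small beside those within it. Gm16596 fell by 1.37 ± 0.32 on the log2 scale (adjusted p = 0.00948) and 1700001K19Rik by 1.30 ± 0.32 (adjusted p = 0.0124). Mir345 rose by 1.67 ± 0.52 (adjusted p = 0.0337). Hsp90aa1, a heat shock chaperone, rose by 0.53 ± 0.15 (adjusted p = 0.0221). In an edgeR fit without control replicate 3, only Gm16596 still passed, with 1700001K19Rik at an adjusted p of 0.0624, Mir345 at 0.101 and Hsp90aa1 at 0.0733. Without control replicate 2, Mir345 (0.121) and Hsp90aa1 (0.0741) did not pass. Mir345 also failed without control replicate 1 (0.0505) or tumour replicate 2 (0.0730), without tumour replicate 4, and with limma-voom (0.0539), and Hsp90aa1 with total-count scaling (0.101).

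**Figure D4:**
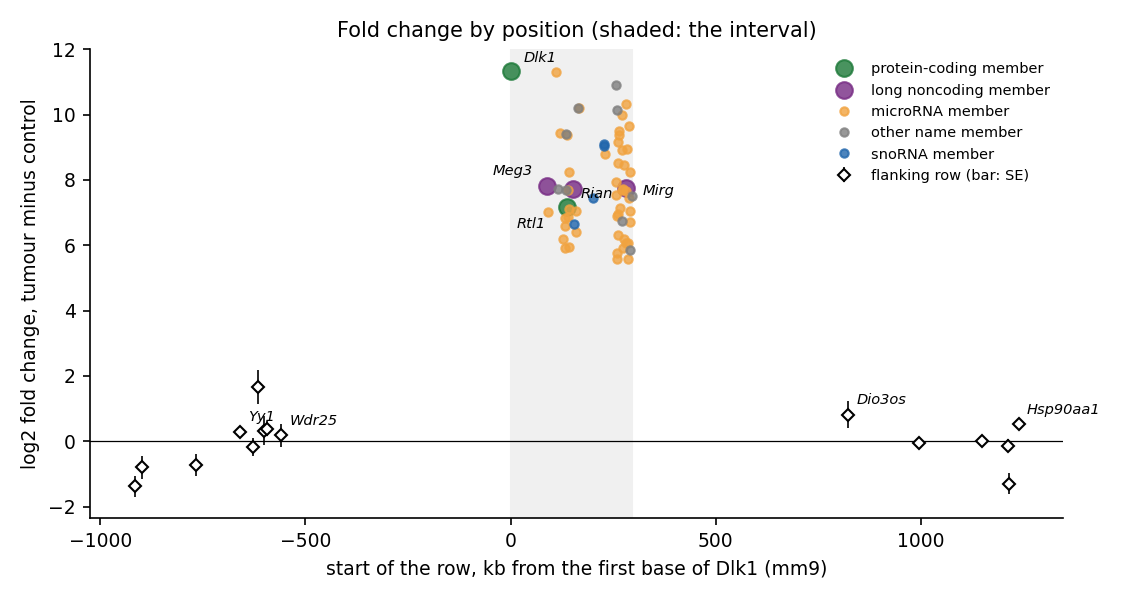
Log2 fold change (tumour minus control) of the 65 members tested and of 15 flanking rows by start position, in kb from the first base of Dlk1; the interval is shaded, colours give the class of member and bars the SE of flanking rows. Members lie between 5.58 and 11.35, and flanking rows between -1.37 and 1.67.

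Genes that keep parental imprints were mixed. Of 21 tested genes of imprint control, 7 rose and 2 fell, with a median log2 fold change of 0.23, beside 18.1% called higher and 23.8% called lower over all rows tested. Zfp57, which binds the methylated hexamer in imprinting control regions, rose from 14.3, 12.2 and 14.3 CPM in control lung to 32.3, 28.3 and 32.9 CPM in tumours (1.20 ± 0.15, edgeR adjusted p = 4.70e-04). Aff3, a subunit of a transcription elongation complex that is reported to bind the control region of this domain, fell from 51.1, 59.2 and 76.4 CPM to 0.360, 1.22 and 0.391 CPM (-6.55 ± 0.49, adjusted p = 4.03e-05). For both genes all tumours lay on one side of all control libraries. The DNA methyltransferase Dnmt1 was at 0.03 ± 0.15 (adjusted p = 0.900) and did not pass.

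Of 16 tested genes of microRNA processing, 4 rose and 2 fell, with a median of 0.14; over all rows tested 42.0% were called in either direction, so a count of 6 is near that share. Hnrnpa1, an RNA-binding protein that acts on some microRNA hairpins, rose by 1.12 ± 0.15 (edgeR adjusted p = 5.80e-04), although near-identical copies of this gene make its count uncertain. Prkra, a partner of Dicer, rose by 1.02 ± 0.15 (adjusted p = 9.34e-04). Ddx17 and Tnrc6a also rose, and Eif2c1 (Ago1) and Tnrc6c fell. Drosha and Dgcr8, which make the first cut of microRNA hairpins, were at 0.48 ± 0.19 and 0.46 ± 0.19 and did not pass (adjusted p = 0.0725 and 0.0818), nor did Dicer1 at -0.16 ± 0.16 (adjusted p = 0.477). Of 12 tested genes of the box C/D snoRNA particle and its assembly, 3 rose and none fell, with a median of 0.43, beside 18.1% of all rows called higher and 23.8% called lower. They were Nop58, a core protein (1.34 ± 0.28, adjusted p = 0.00574), the methyltransferase Fbl (0.91 ± 0.31, adjusted p = 0.0424) and the assembly factor Znhit6 (0.63 ± 0.19, adjusted p = 0.0280). The count was 1 without any 1 of the 3 control libraries.

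Among 15 tested Notch pathway genes, listed because the DLK1 protein is related to Notch ligands, 1 rose and 7 fell, with a median of -0.60, where over all rows tested 18.1% rose and 23.8% fell. Hey1, a target of Notch signalling, fell from 50.8, 63.6 and 45.9 CPM to 4.64, 4.35 and 3.32 CPM (-3.70 ± 0.21, edgeR adjusted p = 1.63e-05), and Hey2 fell by 2.87 ± 0.36 (adjusted p = 4.12e-04). The member that rose was the ligand Jag1 (0.87 ± 0.16, adjusted p = 0.00293). Endothelial cells express several of these genes, and all 8 of 8 endothelial markers fell, from a sum of 3079 to 4131 CPM in control lung to 197 to 289.7 CPM in tumours. Their part in the Notch values was not tested.

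Relatives of Rtl1 and genes of thyroid hormone handling, the field of Dio3, were mostly lower in tumours: 2 rose and 9 fell of 12 tested, with a median of -1.75. Over all rows tested 18.1% rose and 23.8% fell. Cxx1c, also named Rtl8c, fell by 2.71 ± 0.27 (edgeR adjusted p = 1.34e-04), with its count uncertain because Cxx1a and Cxx1b are close copies. Rgag4 (Rtl5) fell from 7.69, 8.51 and 10.3 CPM to 2.39, 2.50 and 1.74 CPM (adjusted p = 4.53e-04). The members that rose were Peg10, a paternally read retrotransposon-derived gene (2.18 ± 0.51, adjusted p = 0.00922), and the receptor gene Thrb (0.59 ± 0.20, adjusted p = 0.0437). Dio2, which activates thyroid hormone, fell by 3.40 ± 0.54 (adjusted p = 0.00135).

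Imprinted genes outside the cluster were mixed. Of 18 tested, 2 rose and 8 fell, with a median of -0.75, beside 18.1% of all rows called higher and 23.8% called lower. Cdkn1c, a cell cycle inhibitor read from the maternal chromosome, was at 11.1, 10.1 and 6.80 CPM in control lung and 0.850, 0.611 and 0.911 CPM in tumours (-3.56 ± 0.31, edgeR adjusted p = 7.48e-05). Ndn, read from the paternal chromosome, fell by 4.07 ± 0.36 (adjusted p = 7.87e-05). The members that rose were Phlda2 (2.59 ± 0.53, adjusted p = 0.00506) and Igf2r (0.64 ± 0.18, adjusted p = 0.0225).

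**Figure D5:**
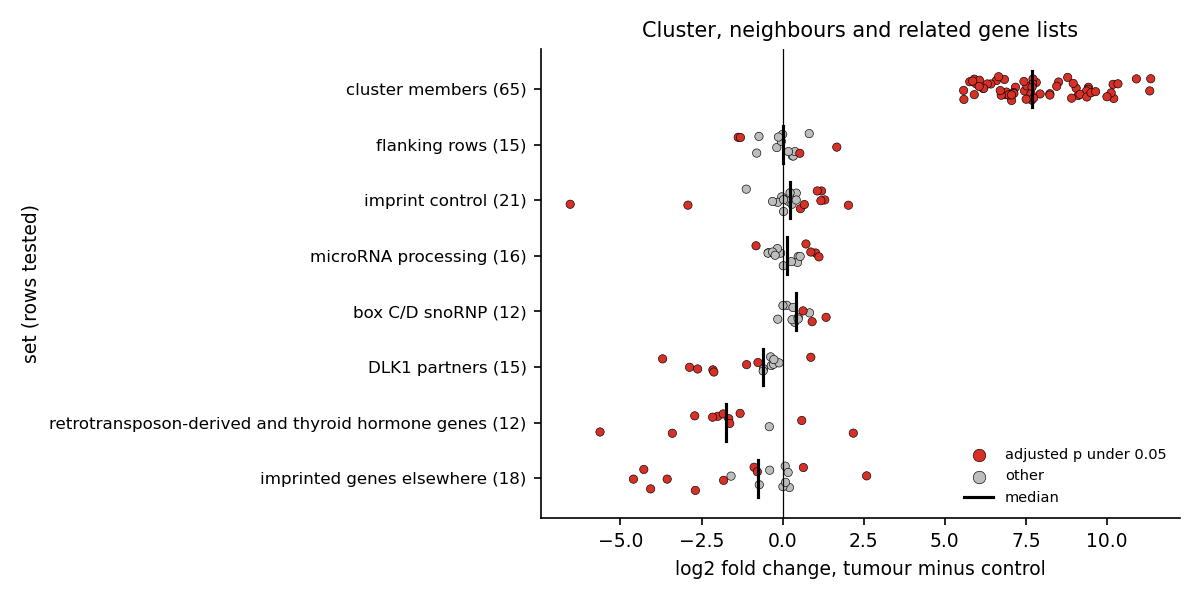
Log2 fold change (tumour minus control) of the members, the flanking rows and 6 gene lists, 1 point a row, red where the edgeR adjusted p was under 0.05, with a bar for the median and the number tested in brackets. The median was 7.68 for the members and between -1.75 and 0.43 for the 6 lists.

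Cell type markers moved with the groups as well. For the counts below, 18.1% of all rows tested were called higher and 23.8% lower. All 8 of 8 AT2 markers (surfactant-making alveolar cells) rose, with a sum of 9889 to 16433 CPM in control lung and 28587 to 65258 in tumours, so both groups carried markers of AT2 cells. Of 6 club cell markers 5 fell (10015 to 16651 CPM against 78.7 to 205 CPM), of 8 fibroblast markers 7 fell (1275 to 1471 CPM against 216 to 407 CPM), and all 6 muscle markers tested fell (84.8 to 543 CPM against 8.24 to 30.6 CPM). Neuroendocrine cells and embryonic tissue are known to express genes of the cluster. Of 14 neuroendocrine markers, 9 were tested, 6 fell and 1, Scg5, rose (1.86 ± 0.53, edgeR adjusted p = 0.0219), with a sum of 19.4 to 23.6 CPM in control lung and 13.9 to 25.0 CPM in tumours. Nov, picked out after its values were seen, gave 5.96 ± 1.64 CPM (SD, n = 3) of the sum in control lung and 14.2 ± 7.68 in tumours. Its log2 fold change was 1.25 ± 0.44 (edgeR adjusted p = 0.0530), and its groups overlapped. Without Nov the sum was 12.6 to 17.7 CPM in control lung and 4.29 to 8.19 in tumours. Scg2 and Snap25 were among the markers with no read in any tumour library. Of 8 embryonic and placental markers, 2 were tested: Afp rose (3.61 ± 0.24) and Gata1 fell (-4.28 ± 0.87). Hbb-bh1, Hba-x, Tcfap2c, Hand1 and Prl3d1 had no read in any tumour library, but also at most 2 reads each in control lung. The sum went from 1.22 to 1.76 CPM in control lung to 9.79 to 11.7 CPM in tumours, nearly all of it Afp. The part of these cell types in the levels of the cluster was not tested.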

How the data were processed

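RNA was sequenced from 3 control lung and 3 urethane tumour libraries. The deposited values are raw counts, 1 row for each gene name. Per the file headers, the authors counted with featureCounts 1.6.5 over exons of GENCODE M1 (mm9). A read counted toward every name it touched, and no strand option was set. STAR, edgeR, limma and R 3.6.0 appear in the submitters' processing notes, as do the builds GRCm38 and mm9. The aligner's build and version are not given in the sources used here.

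Counts were tested over the whole table with edgeR 4.0.16 (R 4.3.3): rows were kept by filterByExpr (minimum count 10), libraries were scaled by TMM, and the quasi-likelihood F test was called at a Benjamini-Hochberg adjusted p under 0.05. The SE of a log2 fold change is its size divided by the square root of the F statistic. It is thus the test result on another scale, and it can understate the uncertainty of rows with few control reads. CPM values are after TMM scaling, with mean and SD over 3 libraries. Folds of pooled reads have exact binomial 95% intervals, and bounds set a group with no read at 3 reads. The procedure was tested on simulated data. Alternatives were DESeq2 1.42.0, limma-voom (limma 3.58.1), other scalings, no filter, each library left out and a replicate block.

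The members and the lists were chosen with earlier results of these data known. Named by rule were all protein-coding and long noncoding members, the 12 most abundant microRNA and snoRNA rows per kilobase without overlap, Dio3, the nearest tested and the called flanking genes, and the 2 members of each pathway list with the smallest p. Other genes were named after their values were seen. The 166 entries of the lists were matched by symbol (151) or older symbol (14), and 1 found no row. The value of 1 listed marker is not reported here.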

Additional observations from a re-analysis of the deposited data

How the results depend on the processing

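The count of members called was 65 under every alternative run on the full set, other than 63 without tumour replicate 2, and 48 of the members without overlap were called. The log2 fold change of Dlk1 ranged from 10.75 to 18.07, the highest in the fit without control replicate 2, where no control read is left, while Meg3, Rian and Mirg ranged from 7.59 to 8.12. The log2 difference of the summed level was 9.63 over members without overlap, and with total-count scaling that of the 3 hosts was 7.65. That scaling moved the median of all genes from 0.01 to -0.10. Leaving out single libraries gave 6421 to 9436 calls over the whole table, 1 to 4 flanking calls and 39 to 49 calls over the 6 lists. Within 500 kb of the interval only Wdr25, upstream, was tested, and it was not called. No downstream row lay within that distance. Wdr25 ranged from -0.22 without tumour replicate 1 to 0.38 without tumour replicate 4. The labels give replicate numbers but no pairing, and same-numbered libraries did not deviate together (r = -0.182 for replicate 1 and -0.009 for replicate 2). With a replicate block, which leaves 1 residual degree of freedom, 3641 rows were called over the whole table, 0 flanking rows and 20 list genes. In that fit 65 members were called. Control replicate 3 and tumour replicate 4 share their number with no library of the other group. They add nothing to the difference in that fit, which rests on replicates 1 and 2. Counts of 0 to 3 reads in control lung limit the fold of most short rows.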
